A study of Homo sapiens with 8 samples.

Results

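CGGBP1, the gene silenced in these cells, and the 3 genes that stand beside it on chromosome 3, ZNF654, C3orf38 and CHMP2B, were examined in total and newly synthesized RNA. Their rows were taken by symbol from the deposited table, 4 of 18388 genes, and all 4 passed the filter on low reads, as did 10138 genes in all. U-2OS Tet-ON cells, a human osteosarcoma line that carries a tetracycline-regulated transactivator, received 50 nM of a control siRNA (siControl) or of siRNA against CGGBP1 (siCGGBP1, a pool of 4 siRNAs) for 72 h. All 6 compared libraries, 3 for each siRNA, came from cells given 75 µM 4-thiouridine (4sU) for 60 min, and all sample titles carry the word DMSO. A siControl library without 4sU (0 µM) and another with 200 µM were set beside them and entered no comparison. Nothing in the labels says whether the 3 replicates of a group were separate cultures, so p-values measure the spread between these libraries, which may be technical.

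An siRNA guides the RNA-induced silencing complex to a spliced messenger, which is then cut, largely in the cytoplasm, while transcription of the gene itself is not its target. A knockdown can therefore be read on messengers made before the 4sU pulse and on those made during it. In SLAM-Seq, 4sU that was built into new RNA is alkylated and read as T-to-C conversions, and the GRAND-SLAM program turned the conversions of each gene into a new-to-total RNA ratio. Old RNA here is the reads multiplied by 1 minus that ratio. CGGBP1 is a small nuclear protein with a zinc finger derived from a hAT transposase, and it binds CGG repeats. ZNF654 is a zinc finger protein, CHMP2B is a subunit of ESCRT-III, the complex that severs membrane necks during endosomal sorting and cell division, and C3orf38 is a little-studied open reading frame.

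On GRCh38 (GENCODE 44 annotation) CGGBP1 (ENSG00000163320) lies on the minus strand of chromosome 3 from 88051944 to 88149885. Its canonical transcript has 4 exons and runs from 88059005 down to 88051950, and its coding sequence for 167 residues lies in the last exon, followed by a 3′ UTR of 3523 nt. ZNF654 (ENSG00000175105, plus strand, 88059255 to 88144660) starts 250 bp from the canonical CGGBP1 start and is read the other way. A longer CGGBP1 transcript starts 90.9 kb further upstream, at 88149885. That start is 74 bp from the start of C3orf38 (ENSG00000179021, plus strand, 88149959 to 88168729), so this long form runs antisense through the whole of ZNF654. CHMP2B (ENSG00000083937, plus strand, 87227271 to 87255556) starts 831.7 kb from the canonical CGGBP1 start, and no gene analysed here lies between CHMP2B and CGGBP1. The libraries were primed at poly(A) tails, and the 3′ ends of CGGBP1 and ZNF654 lie 92.7 kb apart. No source used here says whether reads were counted by strand, so reads of overlapping antisense forms at this locus cannot be told apart.

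**Figure D1:**
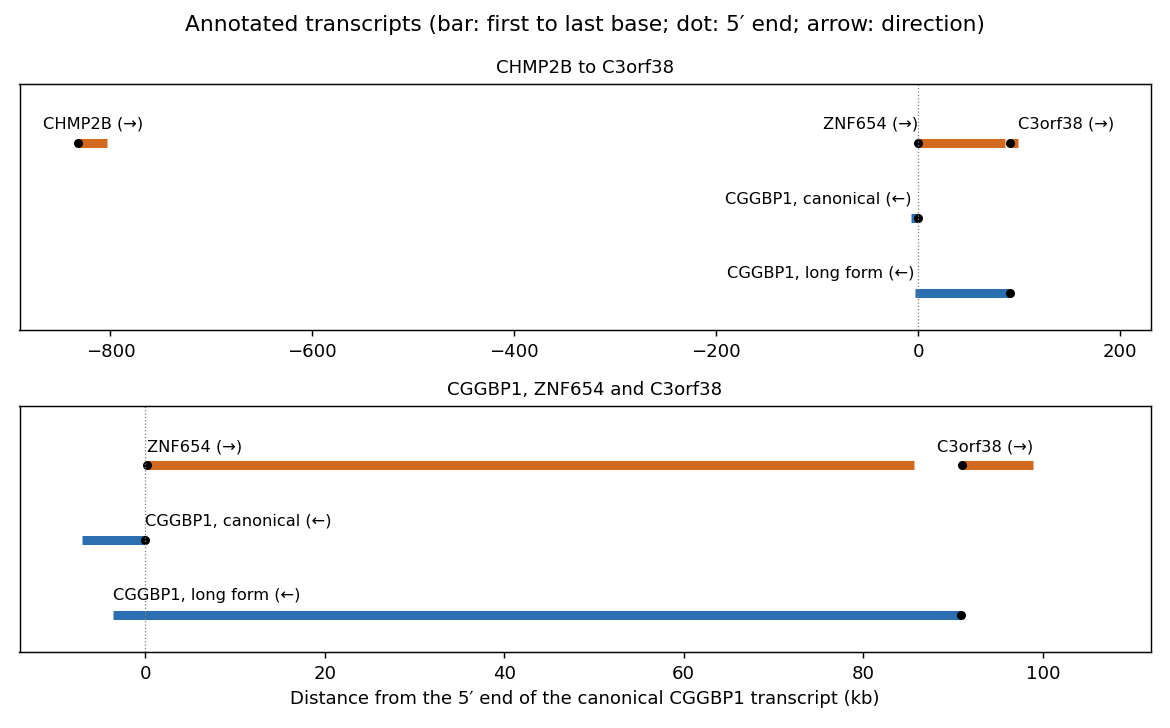
Annotated transcripts as distance in kb from the 5′ end of canonical CGGBP1 RNA, with CHMP2B included above and the CGGBP1, ZNF654 and C3orf38 stretch alone below. Blue bars are CGGBP1 transcripts, orange bars the canonical transcripts of the neighbours, dots are 5′ ends and arrows give the direction of transcription. The starts of CGGBP1 and ZNF654 are 250 bp apart, and the long CGGBP1 form begins 74 bp from C3orf38.

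The study's RT-qPCR primers for CGGBP1 are shown because they mark where on the messenger its own knockdown assay reads. Each matched chromosome 3 at a single place, inside the coding sequence of exon 4.
CGGBP1 forward primer: tgccattagtgaccacctc
CGGBP1 reverse primer: tctcaagtgggatgttggc
The forward primer matched chr3:88055791-88055809 on the minus strand and the reverse primer chr3:88055619-88055637 on the plus strand of GRCh38, which gives an amplicon of 191 nt. The amplicon ends 3669 nt before the annotated 3′ end of the canonical transcript, near which the reads of the 3′ end libraries are expected to fall. Other annotated CGGBP1 forms end nearer to the amplicon, and where the reads fell was not examined. The siRNA sequences were not used here.

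Among the 4 genes, the RefSeq promoter set (GRCh38.p14) listed CHMP2B, with a window of 250 bases before and 50 bases after its start. It is shown up to the first annotated transcript start, chr3:87227059-87227270 on the plus strand, because CGGBP1 binds CGG repeats. Capitals mark every base that lies in a CGG or, for the other strand, a CCG.
CHMP2B promoter: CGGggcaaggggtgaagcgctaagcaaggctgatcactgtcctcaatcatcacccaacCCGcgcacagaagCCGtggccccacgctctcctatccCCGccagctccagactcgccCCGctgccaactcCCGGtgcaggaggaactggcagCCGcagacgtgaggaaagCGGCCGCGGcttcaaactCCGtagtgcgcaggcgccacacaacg
These 212 bases held 4 CGG and 8 CCG triplets, counted with overlaps. Neither CGGCGG nor CCGCCG occurred in the full window of 300 bases, whereas 29.6% of 35116 promoters of that length held at least 1 of these tandems and 88.1% held at least 1 CGG or CCG triplet. A match is a description of letters and says nothing on binding.

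The 6 libraries held between 10127519 and 14221516 reads. Replicate 3 of each group stood apart from the other 4 libraries: the new-to-total ratio was listed at 0 for 57.4% of tested genes in siControl replicate 3 and for 59.8% in siCGGBP1 replicate 3, against 22.5% to 31.9% in the other 4 libraries. Over all genes, T-to-C conversions per 100 covered T were 0.183 in siControl replicate 3 and 0.241 in siCGGBP1 replicate 3. The other 4 libraries had 0.225 to 0.263, so siCGGBP1 replicate 3 was within their range. The siControl library with 200 µM 4sU resembled replicates 3, with a ratio of 0 for 55.6% of tested genes. Fitted changes of new and old RNA are therefore also given without these 2 libraries, an alternative chosen after the data were seen. The cell type label was checked by 7 mesenchymal markers, of which the table held 6, all of them tested, with summed levels of 3614 to 4459 normalized RPM (reads scaled to the library total, corrected by edgeR's TMM factor) in siControl and 5347 to 7302 in siCGGBP1. COL1A1, a bone collagen chain, and SPARC, a matrix protein of bone, rose with adjusted p-values of 0.0035 and 0.0067 (edgeR, log2 fold changes 1.31 and 1.26). The other tested markers did not pass: VIM, FN1 and RUNX2 had edgeR adjusted p-values of 0.66 to 0.74. THY1 went the other way (-0.30, edgeR adjusted p = 0.62). By the call rule given below, 0.444% of all tested genes were called higher. Of 8 markers of other cells the table held 7. Among these, CD3E, CDH1, PECAM1 and TERT, the telomerase subunit that U-2OS cells are known to lack, had no read in any library. The summed level of the 7 was 5.29 to 8.08 normalized RPM in siControl and 7.35 to 12.9 in siCGGBP1, mostly from EPCAM.

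Total CGGBP1 RNA fell in every siCGGBP1 library. Its level was 106.6, 92.6 and 76.3 normalized RPM in siControl replicates 1, 2 and 3, and 18.1, 9.97 and 30.8 in siCGGBP1 replicates 1, 2 and 3. All 3 siCGGBP1 libraries lay below all 3 siControl libraries, and the gap between the groups was larger than the range within either. The means were 91.8 ± 15.2 (SD, n = 3) and 19.6 ± 10.5 (SD, n = 3), which left 19.7%, 10.9% and 33.5% of the siControl mean in siCGGBP1 replicates 1, 2 and 3. The log2 fold change was -2.22 (SE 0.39, edgeR quasi-likelihood test, Benjamini-Hochberg adjusted p = 0.014), a 4.67-fold lower level. Calls required an adjusted p below 0.05 together with a log2 fold change beyond 1 in either direction, and 0.957% of tested genes were called lower and 0.444% higher. Groups did not overlap, in either direction, for 24.3% of tested genes, so a lack of overlap alone does not set a gene apart. By p, CGGBP1 ranked 54 of 10138, and 35 genes had a lower log2 fold change. The call was lost without siControl replicate 1 (adjusted p = 0.063) or siCGGBP1 replicate 1 (adjusted p = 0.085), and without both replicates 3 the log2 fold change was -2.83 (adjusted p = 0.00027, edgeR). In bulk RNA, fewer cells that express a gene and less RNA per cell cannot be told apart.

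**Figure D2:**
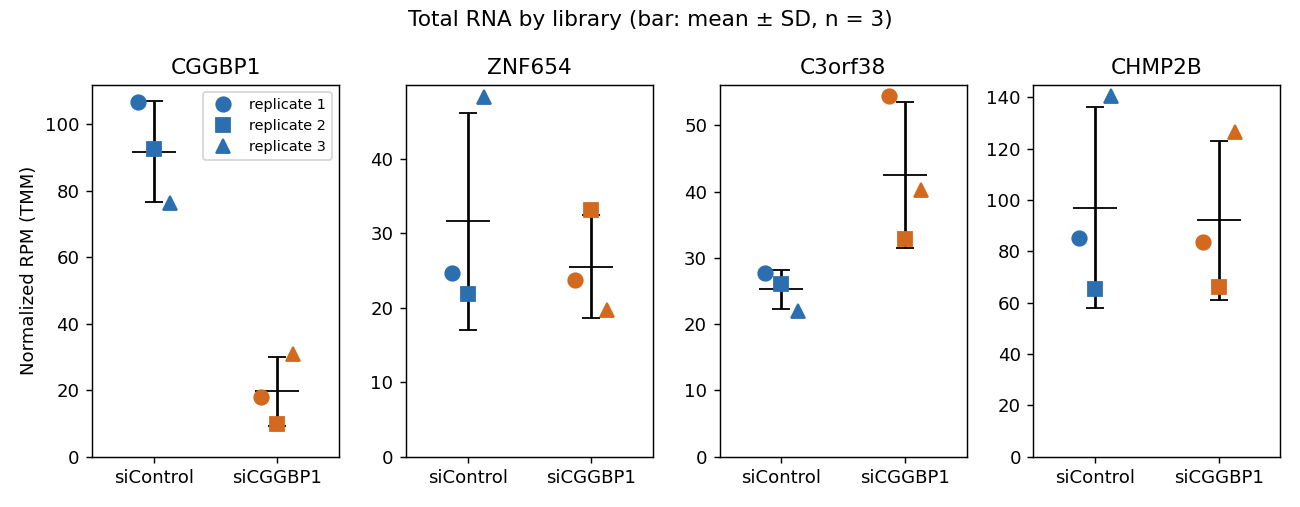
Normalized RPM of the 4 genes in each 75 µM library, siControl in blue and siCGGBP1 in orange, with marker shapes for replicates 1 to 3 and black bars for the mean ± SD (n = 3). CGGBP1 is lower in all 3 siCGGBP1 libraries (9.97 to 30.8 against 76.3 to 106.6), C3orf38 is higher in all 3 (32.8 to 54.4 against 21.9 to 27.8), and the groups overlap for ZNF654 and CHMP2B.

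The CGGBP1 reads that remained after siCGGBP1 were rich in conversions in replicates 1 and 2 and nearly free of them in replicate 3. CGGBP1 reads of siControl held 152, 126 and 119 conversions among 44240, 43150 and 37430 covered T. Those of siCGGBP1 held 231, 130 and 2 among 7861, 4315 and 15990. Thus siCGGBP1 replicates 1 and 2 held at least as many conversions as siControl replicates 2 and 3, from far fewer reads. Per 100 covered T, the siControl rates were 0.344 (95% exact binomial interval 0.291 to 0.403), 0.292 (0.243 to 0.348) and 0.318 (0.263 to 0.380). The siCGGBP1 rates were 2.94 (2.58 to 3.34), 3.01 (2.52 to 3.57) and 0.0125 (0.0015 to 0.0452). The first 2 intervals lie above every siControl interval, and the last lies below them and overlaps that of the library without 4sU, 0.00934 (0.0043 to 0.0177). These intervals take every covered T as a separate trial, although conversions shared reads. In siCGGBP1 replicate 1, 71 of 184 CGGBP1 reads held at least 2 of them. Reads also carried no molecular identifiers in these files. Such intervals cover counting error at most and may be too narrow. The difference of the mean rates, 1.67 per 100 T, had a two-sided exact permutation p of 0.4 (adjusted p = 1 over the 4 genes), and 3 libraries against 3 cannot give a p below 0.1. Without both replicates 3 the difference was 2.66, and 2 against 2 allow no p below 0.333.

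**Figure D3:**
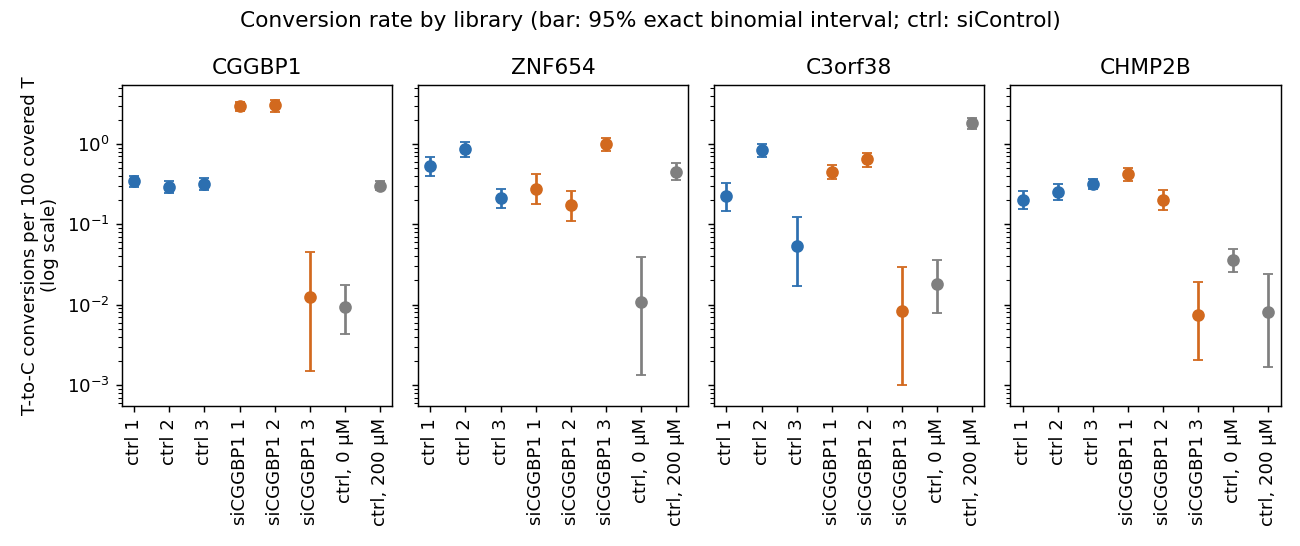
T-to-C conversions per 100 covered T on a log axis for the 4 genes in all 8 libraries, with 95% exact binomial intervals as bars; blue is siControl and orange siCGGBP1 at 75 µM 4sU, and grey marks the single siControl libraries at 0 and 200 µM. CGGBP1 sits at 2.94 and 3.01 in siCGGBP1 replicates 1 and 2 and at 0.0125 in replicate 3. In siCGGBP1 replicate 3, C3orf38 is likewise near its 0 µM level, CHMP2B lies below its own (0.0075 against 0.0358), and ZNF654 lies above.

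CGGBP1 conversions were also divided by the library total, as for RPM but without the TMM factor, which gave 15, 10.4 and 9.91 in siControl. On that scale they were 22.8, 11.1 and 0.141 under siCGGBP1, against 0.473 in the library without 4sU. The first 2 siCGGBP1 values lie within or above the siControl range. Reads with at least 2 conversions made up 2.79%, 3.16% and 0% of CGGBP1 reads in siControl, 38.5%, 19.5% and 0% in siCGGBP1, and 0% at 0 µM. Both replicates 3 had no such read for CGGBP1, although siControl replicate 3 held 119 conversions in 888 reads. The 0 allows a share of up to 0.415% in siControl replicate 3 and 0.833% in siCGGBP1 replicate 3 (upper exact 95% limits).

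The new-to-total ratio of CGGBP1, which rests on the same conversions, was 5.85% (90% credible interval 4.48 to 7.65), 6.35% (5.01 to 8.07) and 12.2% (9.67 to 15.3) in siControl. In siCGGBP1 it was 71.1% (63.3 to 78.1), 32.7% (24.9 to 42.0) and 0% (0.02 to 1.03). Between 18.1% and 42.8% of tested genes had a higher ratio than CGGBP1 in the siControl libraries. In siCGGBP1 replicates 1 and 2, that share was 0.464% and 2.77%, which put CGGBP1 among the genes with the highest ratios there. In siCGGBP1 replicate 3 it was 40.2%, which is every tested gene with a ratio above 0. CGGBP1 was there among the 59.8% of tested genes listed at 0, the lowest value. The group means were 8.15 ± 3.56% and 34.6 ± 35.6% (SD, n = 3), and the difference did not exceed the spread of the replicates (exact permutation test, two-sided p = 0.4, adjusted p = 0.8 over the 4 genes). This difference of 26.5 percentage points was 8.19 without siCGGBP1 replicate 1, 43.8 without siCGGBP1 replicate 3 and 45.8 without both replicates 3. Taken as a constant decay over the 60 min pulse, the siControl ratios correspond to half-lives of 11.5, 10.6 and 5.30 h.

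Split by that ratio, old CGGBP1 RNA was lower in every siCGGBP1 library but did not pass the threshold in the edgeR fit. A change of new CGGBP1 RNA was not resolved. Old CGGBP1 RNA was 100.3, 86.7 and 66.9 normalized RPM in siControl and 5.22, 6.71 and 30.8 in siCGGBP1. Replicates 1 and 2 of siCGGBP1 kept 6.17% and 7.93% of the siControl mean, and replicate 3 kept 36.4%. The groups did not overlap, as for 24.3% of tested genes in old RNA, in either direction. The fitted log2 fold change of old RNA was -2.56 (SE 0.61), which did not pass the threshold (adjusted p = 0.088, edgeR), where 0.661% of tested genes were called lower. It was called without siCGGBP1 replicate 3 (-3.82, adjusted p = 0.0033), without both replicates 3 (-3.96, adjusted p = 8.9e-05), with no filter on low reads (-2.58, adjusted p = 0.00095) and by the DESeq2 Wald test (-2.57, adjusted p = 0.00039). It was not called with any other single library left out (edgeR adjusted p from 0.18 to 0.24) or with a replicate block (-3.05, edgeR adjusted p = 0.11). Nor was it called with DESeq2 size factors (edgeR adjusted p = 0.087) or the posterior mean ratio (edgeR adjusted p = 0.083).

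New CGGBP1 RNA was 6.23, 5.88 and 9.34 normalized RPM in siControl and 12.9, 3.26 and 0 in siCGGBP1. As a share of the siControl mean this was 180%, 45.6% and 0%, so the siCGGBP1 libraries lay above, below and at the floor. The log2 fold change was -0.41 (SE 1.75, edgeR adjusted p = 1), with a 95% interval from -3.83 to 3.01 that includes both a loss as large as in total RNA and a rise. Over all genes, 0.0493% were called in new RNA, in either direction. Counting conversions in place of modelled new reads gave 0.016, and leaving out both replicates 3 gave 0.42. A replicate block gave -1.58, and leaving out siCGGBP1 replicate 1 gave -2.11, so the sign was not fixed.

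The fit that compared the change of new RNA with that of old RNA gave 1.92 on the log2 scale for CGGBP1 (SE 3.35, edgeR adjusted p = 1), a smaller loss in new RNA. No gene passed in this comparison (0% called, 175 of 10138 genes at an unadjusted p under 0.05 in edgeR), also under each alternative run. The value was 3.73 without siCGGBP1 replicate 3 (SE 1.96) and 4.09 without both replicates 3 (SE 1.56), each with an edgeR adjusted p of 1. From conversions and unconverted T without both replicates 3 it was 3.27 (SE 0.78, edgeR adjusted p = 0.98). The sign turned when siCGGBP1 replicate 1 (-1.51) or replicate 2 (-0.31) was left out. The difference between old and new CGGBP1 RNA thus depended on which siCGGBP1 libraries entered, and its cause was not tested.

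**Figure D4:**
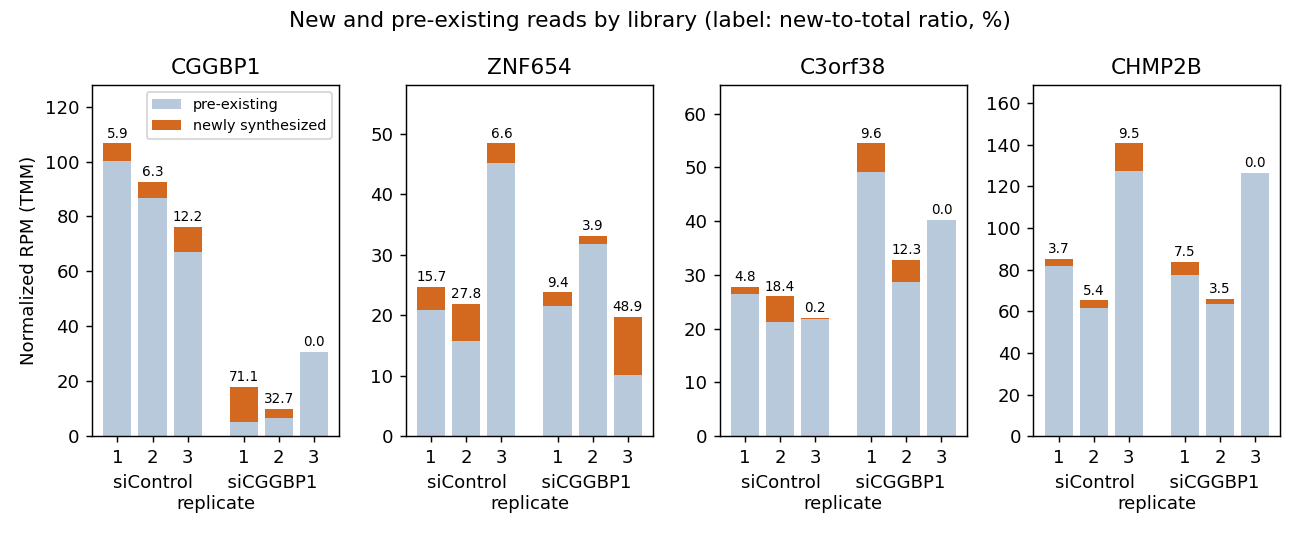
Old RNA (pale blue) and new RNA (orange) of the 4 genes as stacked normalized RPM in each 75 µM library, with the new-to-total ratio in percent above each bar. In siCGGBP1 replicates 1 and 2 the short CGGBP1 bars are 71.1% and 32.7% new, and in replicate 3 the ratio is listed at 0 for CGGBP1, C3orf38 and CHMP2B and is 48.9% for ZNF654.

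Among the neighbours, C3orf38 was higher in all 3 siCGGBP1 libraries but did not pass the test. Its level was 27.8, 26.0 and 21.9 normalized RPM in siControl and 54.4, 32.8 and 40.2 in siCGGBP1. The lowest siCGGBP1 library lay above the highest siControl library, a lack of overlap shared, in either direction, by 24.3% of tested genes. The means were 25.2 ± 2.99 and 42.5 ± 11.0 (SD, n = 3), with a log2 fold change of 0.75 (SE 0.34, 95% interval 0.0100 to 1.49, edgeR adjusted p = 0.30). In plain RPM, without the TMM factor, the siControl library without 4sU held 55.6, above the siCGGBP1 range of 33.0 to 54.8, and that with 200 µM held 25.6, within the siControl range of 21.2 to 27.6. The siControl libraries spanned the siCGGBP1 range only when these other 4sU doses were counted. Each of them has a single library, so dose and library cannot be told apart. Old C3orf38 RNA was likewise higher in all 9 pairs of libraries, a lack of overlap that 24.3% of tested genes showed in old RNA in either direction. Its log2 fold change was 0.77 (SE 0.35, edgeR adjusted p = 0.35), and 0.72 without both replicates 3 (adjusted p = 0.29).

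The conversions of C3orf38 varied more within groups than between them. Its rates per 100 covered T were 0.225, 0.833 and 0.0531 in siControl and 0.452, 0.640 and 0.0082 in siCGGBP1. The lowest value of each group was replicate 3, with 5 and 2 conversions, and the library without 4sU stood at 0.0180. The new-to-total ratio was 4.80%, 18.4% and 0.21% in siControl and 9.60%, 12.3% and 0% in siCGGBP1. New C3orf38 RNA had a log2 fold change of 0.58 (SE 2.64, edgeR adjusted p = 1), and 0.60 without both replicates 3.

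ZNF654, which shares its start region with the canonical CGGBP1 transcript, showed no difference beyond the spread. Its level was 24.7, 21.8 and 48.4 normalized RPM in siControl and 23.8, 33.1 and 19.8 in siCGGBP1. The groups overlapped, and siControl replicate 3 was the highest library. The log2 fold change was -0.31 (SE 0.42, edgeR adjusted p = 0.78) and 0.30 without both replicates 3 (adjusted p = 0.68). The 95% interval ran from -1.21 to 0.60, so its lower end lay above the -2.22 of CGGBP1.

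ZNF654 was the member whose conversions in siCGGBP1 replicate 3 were not near 0. Its rates per 100 covered T were 0.527, 0.853 and 0.212 in siControl and 0.278, 0.173 and 0.992 in siCGGBP1. The ratio was 15.7%, 27.8% and 6.62% in siControl and 9.45%, 3.92% and 48.9% in siCGGBP1. Replicate 3 was thus the highest siCGGBP1 library and the lowest siControl library. Of its 121 conversions in siCGGBP1 replicate 3, a single read held 2 or more, whereas siControl replicate 2 had 91 conversions and 28 such reads. Over whole libraries these reads numbered 18.3 to 19.4 per 100 conversions in the 6 libraries and 1.48 without 4sU. The mean rates did not differ beyond the spread (two-sided exact permutation p = 0.9, adjusted p = 1 over the 4 genes). New ZNF654 RNA had a log2 fold change of 0.0028 (SE 2.12, edgeR adjusted p = 1), and -1.49 without both replicates 3.

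CHMP2B, the most distant of the 4 genes, did not differ beyond the spread. It had 85.2, 65.3 and 140.6 normalized RPM in siControl and 83.6, 66.0 and 126.4 in siCGGBP1. Replicate 3 was the highest library in both groups, and the log2 fold change was -0.08 (SE 0.32, edgeR adjusted p = 0.94), with a 95% interval from -0.78 to 0.63. The siControl library without 4sU was higher still, at 161.9 plain RPM against 66.3 to 136.2 in the 6 libraries. Its rates per 100 covered T were 0.202, 0.256 and 0.320 in siControl and 0.418, 0.203 and 0.0075 in siCGGBP1, and 0.0358 without 4sU. In siCGGBP1 replicate 3, 4 conversions in 1810 reads gave a ratio of 0% (0.01 to 0.28). New CHMP2B RNA had a log2 fold change of -1.24 (SE 2.06, edgeR adjusted p = 1) and turned to 0.34 without both replicates 3.

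The number of covered T per read of CHMP2B did not overlap between the groups, as for 14.4% of tested genes. The values were 36.3, 36.6 and 36.9 in siControl and 35.0, 33.4 and 29.5 in siCGGBP1, and the two-sided exact permutation p was 0.1, the smallest possible, and 0.4 when adjusted over the 4 genes. For CGGBP1 the values were 41.1, 37.9 and 42.2 against 42.6, 36.6 and 36.3, which overlapped. The mean difference was -3.94 for CHMP2B and -5.39 for ZNF654, whose groups overlapped at 39.7, 39.8 and 47.8 against 34.1, 34.0 and 43.1. No difference in this measure passed for any of the 4 genes.

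The loss of CGGBP1 RNA was also read against each neighbour within the same library, which needs no scaling between libraries. CGGBP1 had 3.84, 3.56 and 3.48 reads for each C3orf38 read in siControl and 0.332, 0.304 and 0.766 in siCGGBP1. Against CHMP2B the ratios were 1.25, 1.42 and 0.542 in siControl and 0.216, 0.151 and 0.244 in siCGGBP1. Against ZNF654 they were 4.32, 4.25 and 1.58 in siControl and 0.761, 0.301 and 1.56 in siCGGBP1. The groups were apart for each neighbour, by a narrow margin for ZNF654, where replicates 3 stood at 1.58 and 1.56. The log2 differences were -3.09 (C3orf38), -2.31 (CHMP2B) and -2.11 (ZNF654), each with a two-sided exact permutation p of 0.1, the smallest possible, and an adjusted p of 0.1 over the 3 neighbours. Computed on new reads plus 1, the difference against CHMP2B turned to 0.13.

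Along chromosome 3, none of the genes nearest to CGGBP1 was called with it. Of the 10 tested genes nearest on each side, which span 16.4 Mb to the left and 10.5 Mb to the right, 11 were lower and 9 higher, 0 were called in edgeR (3 at an unadjusted p under 0.05, and 1, PROS1, by DESeq2), and the median log2 fold change was -0.06, against -0.0031 over all tested genes. PROS1, an anticoagulant plasma protein, was the highest at 1.54 (SE 0.43, adjusted p = 0.094), with 17.3, 10.8 and 11.1 normalized RPM in siControl and 46.2, 44.0 and 23.7 in siCGGBP1. VGLL3, a transcriptional cofactor of TEAD factors 1.18 Mb to the left of CGGBP1, followed at 1.45 (SE 0.52, adjusted p = 0.18), with 13.6, 16.3 and 5.33 against 35.1, 19.5 and 41.6. LINC00960, a long noncoding RNA, was the lowest neighbour at -1.13 (SE 0.80, adjusted p = 0.54). PROS1, VGLL3 and C3orf38 were the 3 genes of the 20 that were higher in all 9 pairs, and none was lower in all 9, a count below the 24.3% of all tested genes whose groups did not overlap. The remaining 16 genes, ZNF654 and CHMP2B among them, lay between -0.52 (DHFR2) and 0.46 (RIOX2). Over all 578 tested genes of chromosome 3 other than CGGBP1, 2 were called in edgeR, both lower, and 21 by DESeq2, where 1.4% and 3.66% of all tested genes were called, and the median was 0.0098.

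**Figure D5:**
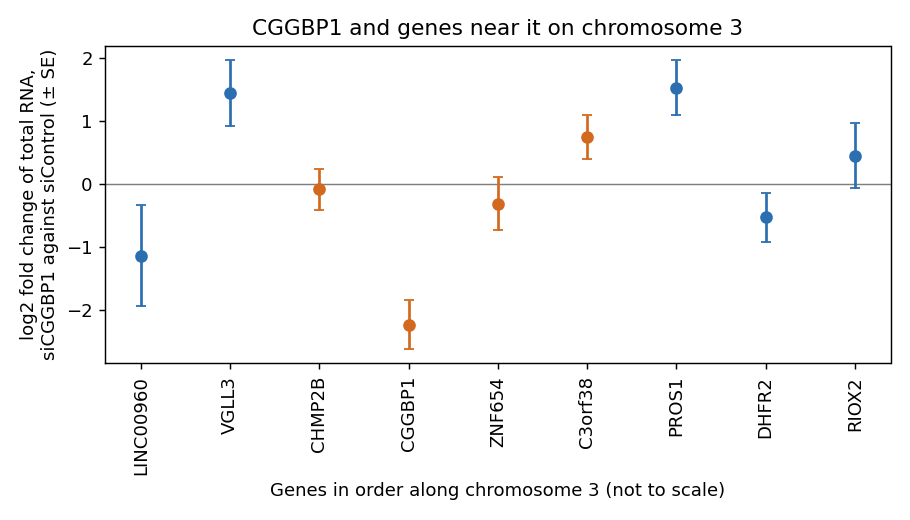
Log2 fold change of total RNA (siCGGBP1 against siControl, ± SE) for CGGBP1, ZNF654, C3orf38 and CHMP2B in orange and for LINC00960, VGLL3, PROS1, DHFR2 and RIOX2 in blue, in order along chromosome 3 and not to scale. CGGBP1 lies at -2.22, and the other genes shown lie between -1.13 and 1.54, none of them called.

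In 3 lists of related genes, ESCRT subunits, hAT-derived genes and siRNA silencing factors, CGGBP1 was the only gene called in total RNA by edgeR. Over all tested genes 1.4% were called by edgeR in either direction and 3.66% by DESeq2, and 16.4% had an unadjusted p under 0.05. Of 29 ESCRT genes, the family of CHMP2B, 28 were tested, 0 were called in either direction by edgeR (3 at an unadjusted p under 0.05) or by DESeq2, and their median log2 fold change was 0.13 (17 higher, 11 lower). The lowest p-values among them belonged to CHMP3 (0.45, adjusted p = 0.24) and VPS28 (0.63, adjusted p = 0.25), ESCRT subunits, and to PDCD6IP (0.67, adjusted p = 0.25), the adaptor ALIX. Of 14 genes derived from hAT transposases, the family that gave rise to CGGBP1, 9 were tested, and CGGBP1 was the called member. Without it, 7 of 8 were higher and 1 lower, with a median of 0.49 and 0 calls in edgeR (2 at an unadjusted p under 0.05, and 1, ZBED3, called by DESeq2). ZBED3 (1.44, adjusted p = 0.11) and GTF2IRD2 (1.29, adjusted p = 0.25) had the next lowest p-values, and reads of GTF2IRD2 and its near copy GTF2IRD2B (1.26) may be shared between them. Of 13 genes of siRNA silencing, 12 were tested, 0 were called in edgeR (2 at an unadjusted p under 0.05) or in DESeq2, and the median was 0.21 (10 higher, 2 lower). TNRC6A (-0.68, adjusted p = 0.15), TNRC6C (0.78, adjusted p = 0.21) and TNRC6B (0.42, adjusted p = 0.39), the scaffold proteins that Argonaute recruits, had the lowest p-values there. AGO2, the Argonaute that cuts target RNA, had a log2 fold change of 0.23 (SE 0.18, edgeR adjusted p = 0.60), 210.2 ± 17.0 against 245.8 ± 23.1 normalized RPM (SD, n = 3).

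The genes whose total RNA followed each member most closely over the 6 libraries were ranked by Pearson's r of log2 normalized reads. For CGGBP1 they were DSTN, KPNB1, JADE2, RNF10 and CLOCK (r of 0.983 to 0.991), and of these KPNB1, an import receptor of the nuclear pore, was called lower itself (log2 fold change -1.29, edgeR adjusted p = 0.0035). For C3orf38 they were LRRC49, AKR1A1, FANK1, NID1 and AL139260.3 (0.969 to 0.982). For ZNF654 they were RNASET2, KLHL18, PID1, PAN3 and MAGEF1 (0.960 to 0.982), and for CHMP2B they were AKR1C3, COQ6, FAM206A, NRBP2 and KRT34 (0.990 to 0.995). All these values rest on the same 6 libraries, picked as the highest of 10134 genes, and a pattern set by 1 library is enough to give them. Among the 4 members themselves, r ran from -0.68 between CGGBP1 and C3orf38 to 0.33 between ZNF654 and CHMP2B, the latter pair being the closest.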

How the data were processed

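SLAM-Seq of U-2OS Tet-ON cells gave 8 libraries. The authors removed ribosomal reads (Bowtie2 2.3.0), mapped the rest to GRCh38 (STAR 2.5.3a; versions as in the submitters' processing notes) and ran GRAND-SLAM. The expected counts of reads, conversions and reads with at least 2 conversions were deposited by the authors without normalization, with fractional values where reads match several genes. Covered T, a coverage signal rounded to 4 significant digits, and the new-to-total ratios, a fraction with a maximum a posteriori value, mean and limits, are also as the authors deposited them. The double-hit columns hold only 0 and were left out. Library totals ranged from 10127519 to 19011714 reads.

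Reads were rounded, and genes that reached 100 reads in 3 or more of the 6 compared libraries were fitted with edgeR 4.0.16 (R 4.3.3; TMM, quasi-likelihood F test, Benjamini-Hochberg over 10138 genes). New RNA was the reads multiplied by the ratio, and new and old RNA were set against each other with a term for each library. Standard errors were derived from the F statistic and the fold change, and 95% intervals use the t distribution with the fitted degrees of freedom. Single values were compared by exact permutation (Benjamini-Hochberg within each family), with exact binomial intervals from scipy 1.17.1. DESeq2 1.42.0, other ratios, filters and left-out libraries were alternatives. Gene positions come from GENCODE 44, with 18198 of 18388 identifiers matched. Named genes were the 4 members, the 10 tested genes nearest on each side (most given by count and range, and 1 not reported here), list genes that were called or else the 3 with the lowest p, and the 5 genes most like each member. AGO2, GTF2IRD2B and the markers were named after their values were seen. The members and lists were chosen with earlier results of these data known.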

Additional observations from a re-analysis of the deposited data

Results flagged for a closer look

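In the siControl library with 200 µM 4sU, which entered no comparison, conversions of 3 of the 4 genes stood above the library without 4sU, with 95% exact binomial intervals that do not overlap. CGGBP1 had 0.303 conversions per 100 covered T (0.265 to 0.344) against 0.00934 without 4sU, a rate within the 0.292 to 0.344 of the 3 siControl libraries at 75 µM. ZNF654 had 0.453 (0.351 to 0.576) against 0.0109. C3orf38 had 1.80 (1.52 to 2.12) against 0.0180, and its new-to-total ratio there was 69.6% in 290 reads. CHMP2B stood below the library without 4sU, with 3 conversions in 1013 reads, 0.0082 (0.0017 to 0.0239) against 0.0358 (0.0255 to 0.0490). For this gene the rate without 4sU was thus not a lower limit, and the cause was not tested. Over all genes the library with 200 µM had 0.218 conversions per 100 covered T, within the 0.183 to 0.263 of the libraries at 75 µM. Its new-to-total ratio was listed at 0 for 55.6% of tested genes. Both doses have a single library, so the intervals cover counting error at most. They take every covered T as a separate trial and may be too narrow.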

How the results depend on the processing

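In the fits of total RNA the CGGBP1 log2 fold change kept its sign in all alternatives, from -2.71 to -1.91 with single libraries left out and -2.83 without both replicates 3. For total RNA, 142 genes were called in the edgeR fit, 371 by DESeq2, 327 with no filter on low reads, 286 at an adjusted p under 0.1, 320 without both replicates 3 (an alternative added after the data were seen, here and below), and 48 to 148 with single libraries left out. For old RNA, 92 were called, 290 by DESeq2, 220 without the filter, 245 without both replicates 3, 54 with a replicate block, and 3 to 91 with single libraries left out. For new RNA, 5 were called, 21 from conversion counts, 88 by DESeq2, 10 without both replicates 3, 2 with a replicate block, and 3 to 6 with single libraries left out.

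Old CGGBP1 RNA was called with no filter (-2.58), by DESeq2 (-2.57) and without both replicates 3 (-3.96), and ranged from -3.82 to -2.17 with single libraries left out. Of these last fits only that without siCGGBP1 replicate 3 called old CGGBP1 RNA, and the replicate block did not (-3.05). Without both replicates 3, the log2 fold change of total RNA turned to 0.30 for ZNF654 and 0.0015 for CHMP2B, of old RNA to 0.56 for ZNF654, and of new RNA to 0.42 for CGGBP1, -1.49 for ZNF654 and 0.34 for CHMP2B. New against old RNA was 4.09 for CGGBP1 and -2.05 for ZNF654 without both replicates 3, that of CHMP2B turned to 0.19, and to 0.36 from conversions. New RNA of CGGBP1 turned to 0.016 from conversion counts. New RNA of ZNF654, near 0, turned to -0.0011 with DESeq2 size factors, -0.014 with no filter, -0.00048 by DESeq2, -0.51 with a replicate block and -0.41 from conversion counts. New RNA of C3orf38 turned to -0.036 with a replicate block, and its new against old RNA to -0.51 with the posterior mean ratio and -0.12 from conversions. The cause of these turns was not tested.

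With single libraries left out, total RNA ranged from -0.37 to 0.30 (CHMP2B) and -0.55 to 0.14 (ZNF654). Old RNA ranged from -0.35 to 0.32 (CHMP2B) and -0.79 to 0.22 (ZNF654). New RNA ranged from -2.11 to 0.18 (CGGBP1), -1.30 to 0.44 (ZNF654), -2.55 to -0.24 (CHMP2B) and -0.024 to 2.15 (C3orf38). New against old RNA ranged from -1.51 to 3.73 (CGGBP1), -1.41 to 0.88 (ZNF654), -4.00 to -0.19 (CHMP2B) and -1.99 to 1.49 (C3orf38).

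Differences of the conversion rate, per 100 T, ranged from -0.162 to 0.228 (C3orf38), -0.154 to 0.0512 (CHMP2B) and -0.305 to 0.112 (ZNF654), and those of the ratio, in percentage points, from -4.31 to 4.79 (C3orf38) and -10.0 to 12.5 (ZNF654). Without both replicates 3 the rate difference turned to 0.0172 for C3orf38 and 0.0815 for CHMP2B, the ratio difference to -15.1 for ZNF654 and 0.905 for CHMP2B, and covered T per read to 0.0775 for CGGBP1 and -0.0201 for C3orf38. Reads with at least 2 conversions gave a share of reads 0.603 percentage points higher for C3orf38 in siCGGBP1, and new reads plus 1 gave 0.13 for CGGBP1 against CHMP2B. The exact tests of 3 against 3 cannot pass 0.05, so they say nothing on stability.

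Samples with the same replicate number deviated together weakly, with correlations of 0.116, 0.201 and 0.0978 for numbers 1, 2 and 3. Pairs of unlike number were all negative, from -0.113 to -0.0339. Deviations from a group mean sum to 0 over its 3 libraries, so positive pairs of the same number pull the others below 0. Except in the replicate block, the numbers were not taken to pair the samples, although each library correlated best with its own number. With a replicate block the CGGBP1 log2 fold change of total RNA was -2.36 (edgeR adjusted p = 0.028), and 160 genes were called. With that block, CGGBP1 stood at -3.05 in old RNA (edgeR adjusted p = 0.11) and -1.58 in new RNA, against -2.56 and -0.41 without it. New CGGBP1 reads numbered 0 in siCGGBP1 replicate 3, the library with the most reads of the 6, and 131 in siCGGBP1 replicate 1, the library with the fewest.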
